A study of Sus scrofa with 30 samples.

Results

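Among the 873 annotated small RNA sequences of the porcine endometrium, 31 belong to miR-143 or miR-145, with 22 of miR-143 and 9 of miR-145. A sequence was taken as a member when its name in the study's list of annotated sequences has the root mir-143 or mir-145, whatever the species prefix, arm or copy number. No fold change or test entered this choice, but the list itself was filtered on reads: it held sequences with at least 10 reads in at least 4 libraries (3 in CD12) of at least 1 group. By the counts used here, 21 of the 31 members met this in all 6 groups, and 2 (the 5′ -4 3′ +5 GGGAA and 5′ -3 3′ +5 GGGAA forms of miR-143-3p) in CD12 alone, so that a rare member can be on the list through a group in which it was high. No further filter was applied. Each member was counted by exact match in the libraries, so that a canonical miRNA and its isomiRs, which differ from it by bases at 1 or both ends, were counted apart.

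The endometrium, the inner lining of the uterus, was taken from Hampshire x Duroc crossbred gilts aged 7 to 8 months. The paper describes the gilts as inseminated, without setting the cyclic animals apart. The 30 libraries, 1 per animal, fall into 6 groups by status and day. Pregnant animals gave 5 libraries on day 12 (PD12), 5 on day 16 (PD16) and 6 on day 20 (PD20), and animals in the estrous cycle gave 4 (CD12), 5 (CD16) and 5 (CD20). Animals counted as pregnant carried at least 4 conceptuses. Conceptuses were flushed from the horns up to day 16 of pregnancy. On day 20 of pregnancy the endometrium came from implantation sites, once the embryos and trophoblast had been taken off. The PD20 tissue was thus collected in another way. In comparisons with PD20, the site and way of collection cannot be told apart from status or day. The tissue was whole, with epithelium, stroma, vessels and blood, so that a smaller number of cells of a type and less of a miRNA in each cell cannot be told apart.

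A miRNA is cut from a hairpin precursor, whose 5′ and 3′ arms (5p and 3p) can each give a mature strand. The strand guides the silencing machinery to mRNAs chiefly through its seed, bases 2 to 8, so that a shifted 5′ end changes the seed and a changed 3′ end does not. miR-143 and miR-145 come from neighbouring hairpins, are abundant in smooth muscle and other mesenchymal cells, and are known for their part in the smooth muscle phenotype. In the porcine RefSeq annotation (Sscrofa11.1), MIR143 and MIR145 lie next to each other on chromosome 2, with 0 other genes starting between them. No separated cells were sequenced, so the cell type that carries them was not checked here.

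The canonical sequences of the 4 arms are shown first, as the annotated list gives them, 5′ to 3′ and in DNA letters, with the seed in capitals, since every other member is described by its difference from them.
miR-143-3p canonical: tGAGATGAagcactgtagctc
miR-143-5p canonical: gGTGCAGTgctgcatctctgg
miR-145-5p canonical: gTCCAGTTttcccaggaatccctt
miR-145-3p canonical: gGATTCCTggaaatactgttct

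The members named most often below differ in their 3′ end. In the next lines the capitals mark the bases added to the canonical 3′ end, and the forms shortened by 1 to 3 bases have no capitals.
miR-143-3p 3′ +1 T: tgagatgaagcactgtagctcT
miR-143-3p 3′ +1 G: tgagatgaagcactgtagctcG
miR-143-3p 3′ +1 A: tgagatgaagcactgtagctcA
miR-143-3p 3′ +2 GG: tgagatgaagcactgtagctcGG
miR-143-5p 3′ +2 TC: ggtgcagtgctgcatctctggTC
miR-143-3p 3′ -2: tgagatgaagcactgtagc
miR-143-3p 3′ -3: tgagatgaagcactgtag
miR-145-5p 3′ -1: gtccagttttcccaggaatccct

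Other members start at another base, and thereby carry another seed, again in capitals.
miR-143-3p 5′ +1: cTGAGATGaagcactgtagctc
miR-143-3p 5′ +1 3′ -2: cTGAGATGaagcactgtagc
miR-143-3p 5′ -1: gAGATGAAgcactgtagctc
miR-143-3p 5′ -3 3′ +4 GGGA: gATGAAGCactgtagctcggga
miR-145-3p 5′ -2 3′ +1 T: aTTCCTGGaaatactgttctt

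The libraries held between 2029729 and 6402731 reads (median 3111079), of which between 1574834 and 5241838 belonged to the 873 annotated sequences. Levels are given below as normalized reads, that is, reads relative to the annotated reads of the library (CPM) after TMM scaling, which sets libraries to a common scale through the bulk of the sequences. miR-143 took between 6.64% and 40.6% of the annotated reads of a library (median 9.69%), and miR-145 took between 0.0498% and 0.346% (median 0.124%). Canonical miR-143-3p ranked 4 among the 873 sequences by mean level and its 3′ +1 T form ranked 6.

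PD20 replicate 1 stood apart from every other library in these miRNAs. miR-143 took 40.6% of its annotated reads (95% Wilson interval 40.6 to 40.7, counting error only) against 6.64% to 16.2% in the other 29 libraries, and miR-145 took 0.346% against 0.0498% to 0.292%. In that library 28 of the 31 members lay above the other 5 PD20 libraries and 27 lay above all of the other 29, while 16.2% and 4.81% of all 873 sequences did so. Relative to the median of the other 5 PD20 libraries, the members were between 0.930-fold and 21.4-fold (median 5.37-fold), and all 873 sequences had a median of 0.972-fold. The 3 members that did not exceed the other PD20 libraries were those of miR-145-3p, the least abundant arm. Its TMM scaling factor, 0.644, was the lowest of the 30, followed by 0.744 in CD12 replicate 2.

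The muscle miRNA miR-1 was, like miR-143, at its highest in the same library. The list of muscle miRNAs had 7 names, of which miR-1, miR-206 and miR-499 were among the annotated sequences with 8 sequences, and miR-133a, miR-133b, miR-208b and miR-490 were not. miR-1, known from skeletal and cardiac muscle and also present in smooth muscle, was the most abundant of them, and its leading sequence is given here with the seed in capitals.
miR-1: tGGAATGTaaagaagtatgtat
The summed level of the list was 40186 normalized reads in PD20 replicate 1 and between 1111 and 16765 (median 2075) in the other 29 libraries. The next highest libraries were CD16 replicate 5 at 16765, CD20 replicate 4 at 8771, PD12 replicate 3 at 8241 and PD20 replicate 3 at 8098. Nearly all of the sum was miR-1, with 5 of the 8 sequences. Summed miR-1 was 40156 in PD20 replicate 1 and 16744.5 in CD16 replicate 5. The list sum therefore shows miR-1 and says little of miR-206 or miR-499. None of the 8 sequences was at 0 in all libraries. The part of muscle tissue in the miR-143 values was not tested, and most tests that use PD20 replicate 1 are given with and without it.

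**Figure D1:**
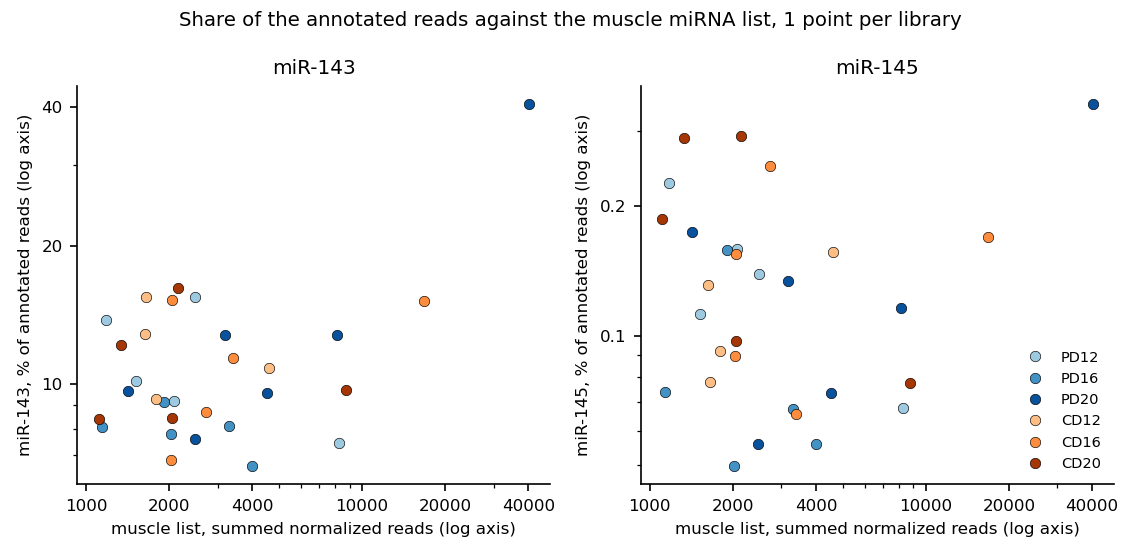
Share of the annotated reads taken by miR-143 (left) and miR-145 (right), in percent on a log axis, against the summed normalized reads of the muscle miRNA list (log axis), with 1 point per library coloured by group. PD20 replicate 1 is the point at the top right of both panels, at 40.6% and 0.346% with a list sum of 40186, and CD16 replicate 5 has the next highest list sum, 16765.

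The lists for other cell types did not stand apart in PD20 replicate 1. Its sum over 39 stromal sequences (miR-199a, miR-199b, miR-214 and the like) was 4605 normalized reads, within the 3475 to 6839 of the other 29 libraries. Its epithelial sum (65 sequences, led by miR-200c) was 16828 against 10066 to 29945, its endothelial sum (17 sequences of miR-126) was 3515 against 1782 to 4956, its leukocyte sum (15 sequences) was 178 against 69.4 to 565, and its erythrocyte sum (16 sequences, led by miR-451) was 2969 against 326 to 3977.

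The level of miR-143-3p, summed over its 19 sequences, lay between 62895 and 208031 normalized reads in the 29 libraries other than PD20 replicate 1. It was 114376, 132592, 91109, 75773 and 104478 normalized reads in the PD12 libraries, and 84977, 93792, 65984, 64033 and 75782 in the PD16 libraries. In the PD20 libraries the lowest was 75666, the median 111784 and the highest 629608, the last being replicate 1, without which the highest was 136709. The cyclic libraries were at 150341, 208031, 99427 and 124695 (CD12), at 106907, 153767, 110042, 62895 and 139923 (CD16), and at 125979, 106522, 76135, 92038 and 88674 (CD20). The groups overlapped, each with its neighbour in the order of medians: CD12 (137518), PD20 (111784), CD16 (110042), PD12 (104478), CD20 (92038) and PD16 (75782).

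miR-145-5p, summed over 6 sequences, was much less abundant. Without PD20 replicate 1 it varied more for its mean, with an SD of 610 on a mean of 1224, against 32596 on 105529 for miR-143-3p. With that library the order turned, at 957 on 1360 against 100902 on 122998. The PD12 libraries had 1831, 1163, 791, 1245 and 1140 normalized reads and the PD16 libraries 1440, 571, 521, 518 and 675. The PD20 libraries had a lowest value of 530, a median of 1233 and a highest of 5308, again in replicate 1, with 1294 as the highest of the others. The cyclic libraries had 1491, 1031, 1404 and 1202 (CD12), 589, 1533, 3090, 776 and 1436 (CD16), and 2202, 2480, 1624, 715 and 991 (CD20). By median the order was CD20 (1624), CD16 (1436), CD12 (1303), PD20 (1233), PD12 (1163) and PD16 (571), and neighbours in that order overlapped. PD16 was the lowest group by median for both leading arms, with 4 of its 5 libraries below all CD12 libraries in miR-145-5p.

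The opposite arms were scarce. miR-143-5p had group medians from 90.2 (CD20) to 155 normalized reads (PD20), and reached 1032 in PD20 replicate 1. miR-145-3p had group medians from 28.4 (PD16) to 49.1 (CD16), with its highest level, 136, in CD16 replicate 5. The geometric mean over the 30 libraries of the ratio of miR-143-5p to miR-143-3p was 0.00171, and that of miR-145-3p to miR-145-5p was 0.0274. Ratios between arms, here and below, are those of the most abundant listed sequence of each arm. For the leading arms, the ratio of miR-145-5p to miR-143-3p had a geometric mean of 0.0110 and ran from 0.00406 to 0.0426, so that libraries of the same tissue differed widely in the balance of these neighbours. Adapter ligation and PCR favour some sequences over others, so a ratio between 2 sequences is on the scale of reads, not of molecules.

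**Figure D2:**
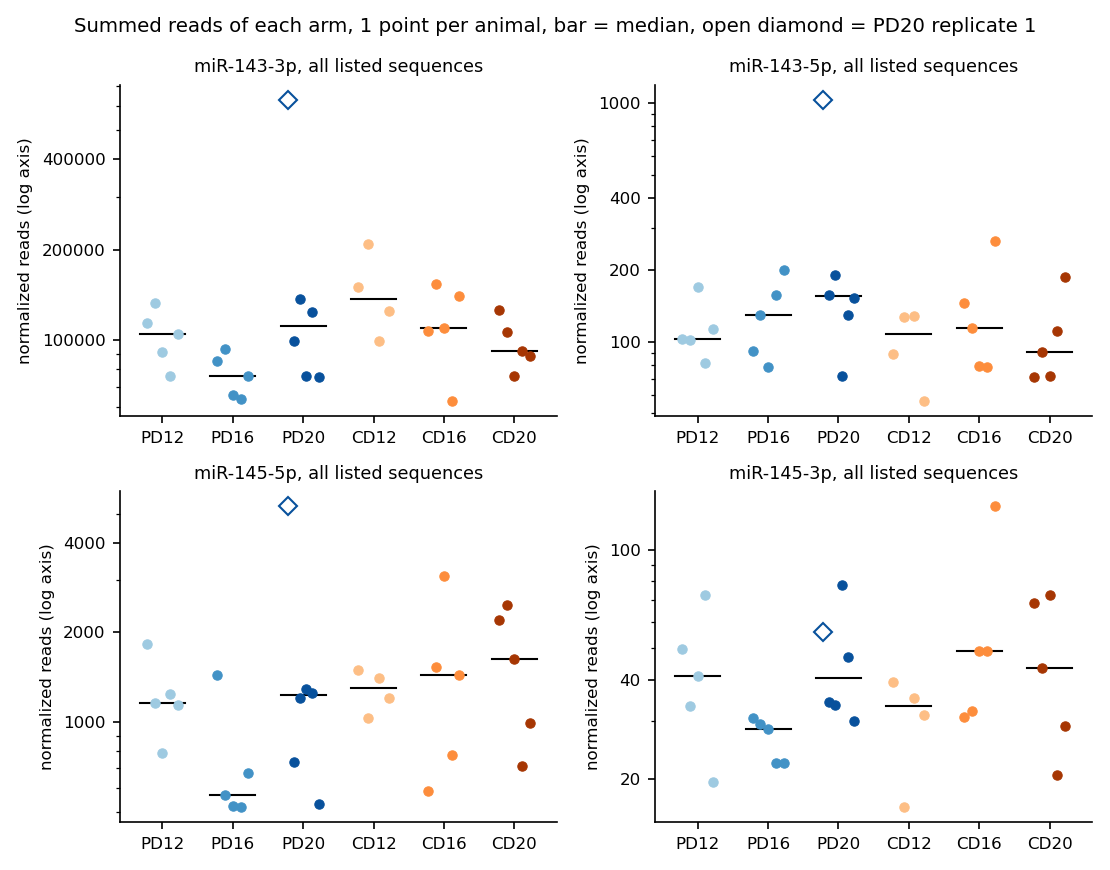
Summed normalized reads (log axis) of the listed sequences of each arm by group, with 1 point per animal, a bar for the group median and an open diamond for PD20 replicate 1. Neighbouring groups overlap in every arm, and PD20 replicate 1 is above all other libraries in miR-143-3p, miR-143-5p and miR-145-5p but not in miR-145-3p.

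Across the 30 libraries canonical miR-143-3p and the leading miR-145-5p sequence, the 3′ -1 form, had a Pearson r of 0.46 on log2 normalized reads, which was 0.17 over the 29 libraries without PD20 replicate 1. Correlations are given as descriptions, since all points share the scaling of their library. The search covered 526 sequences of other miRNAs with a mean of at least 10 normalized reads, isomiRs counted apart. For each miRNA only its sequence with the highest r is given, a choice that favours a high r. The one most like canonical miR-143-3p was a minor miR-1 sequence with a mean of 135 normalized reads, with r of 0.87 (0.71 without PD20 replicate 1). The leading miR-1 sequence shown above had an r of 0.50 with canonical miR-143-3p. The minor miR-1 sequence was followed by miR-664 (0.55, and 0.61 without PD20 replicate 1), miR-101 (0.54 and 0.48), miR-30e (0.53 and 0.52) and miR-140 (0.52 and 0.59). The likest to the miR-145-5p 3′ -1 form were miR-196b (0.71 and 0.75), miR-200b (0.62 and 0.72), miR-101 (0.61 and 0.71), miR-450c (0.59 and 0.63) and miR-491 (0.59 and 0.61). The summed levels of miR-1 and miR-143 had an r of 0.50 over the 30 libraries and 0.095 without PD20 replicate 1.

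Nearly all miR-143-3p reads kept the canonical 5′ end, and they differed at the 3′ end. Among the listed sequences, the canonical 3′ end made up 48.9% ± 5.74 (SD, n = 30) of the arm and the 3′ +1 T form 41.4% ± 4.30. The 3′ +1 G form took 4.66% ± 0.869, the 3′ -1 form 3.62% ± 2.06 and the 3′ +1 A form 0.924% ± 0.251. These shares are by 3′ end and include the few reads with a shifted 5′ end. The 9 sequences with the canonical seed GAGATGA had a mean of 122601 normalized reads.

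miR-145-5p was mostly shorter than its canonical form. The 3′ -1 form made up 51.0% ± 6.98 of the listed reads of the arm (SD, n = 30), the 3′ -2 form 29.1% ± 2.63 and the 3′ -3 form 14.5% ± 5.84, while the canonical end had 3.32% ± 0.760. Its 5 sequences with the seed TCCAGTT had a mean of 1349 normalized reads.

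The arms differed in how often the 5′ end, and with it the seed, was shifted. In miR-143-3p shifted sequences made up 0.303% of listed reads on average (0.196% to 0.501%), and in miR-145-5p 0.818% (0.320% to 1.58%). In miR-145-3p they made up 58.3% ± 9.89 (SD, n = 30; 37.1% to 75.8%) and were the larger part in 25 of 30 libraries. The shifted miR-145-3p forms lack the first 2 bases, so that the seed TTCCTGG (mean 24.8 normalized reads) was more abundant than the canonical GATTCCT (18). No miR-143-5p member was shifted. Sequences outside the list took a median of 42.2% of the miR-145-3p reads (32.6% to 58.0%) and 40.0% of the miR-143-5p reads (30.0% to 53.7%). For these arms the listed reads thus cover only part of the arm. Although rare within its arm, the miR-143-3p seed TGAGATG of the 5′ +1 forms had a mean of 348 normalized reads, above the 152 of canonical miR-143-5p and its longer forms.

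The deposited tables hold further sequences of these arms that the annotated list does not contain. For miR-143-3p, 1811 such sequences, recognised by the canonical bases 5 to 18, had 2071587 reads in all and made up between 6.71% and 22.7% (median 18.5%) of the arm in a library. The most abundant were a form with C added, a form with TT added and a form with T20C, counted from 1 at the 5′ end of the canonical sequence. They are shown because they outnumber most listed members, with the capitals marking the bases that differ or, in the third, the last 2 bases.
miR-143-3p 3′ +1 C, not listed: tgagatgaagcactgtagctcC
miR-143-3p 3′ +2 TT, not listed: tgagatgaagcactgtagctcTT
miR-143-3p T20C, not listed: tgagatgaagcactgtagcCC
They had 901298, 262788 and 247228 reads. With all deposited sequences counted, the canonical end was 40.5% of the arm, the added T 34.4%, the added C 7.77% ± 2.56 (SD, n = 30), the added G 3.87% and the added TT 2.26%.

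The added C depended on the library. In 28 libraries there were between 10.5 and 27.7 reads (median 20.2) with C added per 100 canonical reads, but 0.400 in CD16 replicate 3 and 0.415 in PD20 replicate 3. The same libraries had 125 and 118 reads with T added per 100 canonical reads, above the 42.4 to 109 of the others. Reads with T or C added together were 125 and 118 per 100 canonical reads in these libraries and 52.9 to 131 in the others, where they overlapped. In miR-145-5p, the T23C change of the 3′ -1 form had 0.964 and 1.23 reads per 100 in those libraries and 13.5 to 29.5 in the others.

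The same was seen outside miR-143 and miR-145. Among 475 other annotated sequences with at least 1000 reads, those with a T at the position were read, which were 125 at position 20, 139 at position 21, 97 at position 22 and 42 at position 23. C was read in place of T at position 22 in a median of 11.9 reads per 100 (7.72 to 18) in 28 libraries and in 0.203 and 0.232 per 100 in CD16 replicate 3 and PD20 replicate 3. At position 21 the medians were 3.95 against 0.0335 and 0.0415, and at position 23 they were 14.3 against 0.295 and 0.969. The difference was not confined to these positions. At position 19 there were 0.0199 and 0.0244 per 100 in the pair against a median of 0.0688 (0.0465 to 0.109), and at 19 of the 23 positions read both lay below all of the other 28. Position 20 split the libraries in another way, into 3 separate levels. In 12 libraries there were 0.404 to 0.506 reads with C per 100, in 8 libraries 0.957 to 1.09, and in 10 libraries 1.30 to 1.47. The low level held 2 libraries of each group, CD16 replicate 3 and PD20 replicate 3 among them, the middle level held 1 or 2 of each group except CD12, which had 0, and the high level held 1 or 2 of each group. In every group the levels followed the replicate number in blocks, for instance middle for PD20 replicates 1 and 2, low for 3 and 4, and high for 5 and 6. Which of the 3 sequencing pools a library was in is not given in the sources used here, whether the levels are the pools was not tested, and calls are given below also with the level as a term in the fit, an alternative added after seeing the data.

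**Figure D3:**
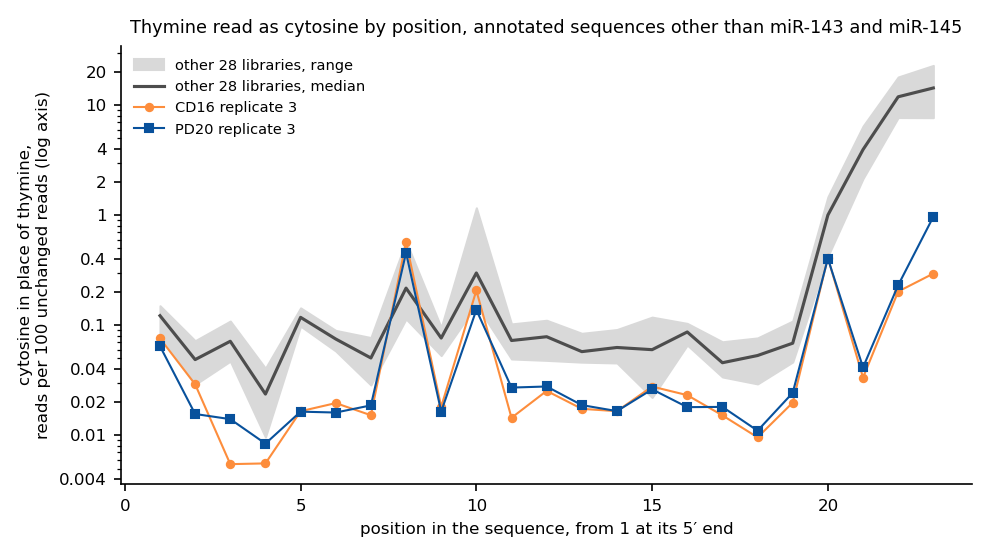
Reads with C in place of T per 100 unchanged reads (log axis) by position from the 5′ end, pooled over annotated sequences outside miR-143 and miR-145, with the range and median of 28 libraries and a line each for CD16 replicate 3 and PD20 replicate 3. At position 22 these libraries are at 0.203 and 0.232, below the 7.72 to 18 of the others.

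The balance between forms was then compared between the groups. For 9 ratios (each of the 3′ +1 T, 3′ +1 G, 3′ +1 A, 3′ -1 and 5′ +1 forms to canonical miR-143-3p, the 2 ratios between arms, miR-145-5p to miR-143-3p, and the 3′ -2 to the 3′ -1 form of miR-145-5p) and 9 comparisons, none of 81 exact two-sided permutation tests of the log2 ratio passed after Benjamini-Hochberg adjustment. A single one had an unadjusted p under 0.05, for G added, with ratios of 0.121, 0.113, 0.0719, 0.136 and 0.119 in PD12 and 0.103, 0.0546, 0.0759, 0.0782 and 0.0695 in PD16. The PD16 libraries were lower by 0.55 on the log2 scale and the groups overlapped (exact permutation p = 0.0317, adjusted p = 0.742). The smallest p that 5 against 5 libraries allow is 0.00794, so the adjustment over 81 tests could not be passed by a single comparison of that size.

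The level of each of the 31 sequences was tested by edgeR's quasi-likelihood test over all 873 sequences, and a member was called at an adjusted p under 0.05 with a log2 fold change (log2FC) beyond 1 in either direction. Many members are forms of the same arm and vary together to differing degrees. With canonical miR-143-3p, for instance, r was 0.92 for its 5′ +1 form and 0.18 for its 3′ -2 form. A count of members, here or elsewhere, is therefore not a count of independent results. In pregnancy, between days 16 and 20, 1 of the 31 members was called, against 0.573% of all 873 sequences. This was the 3′ -3 form of miR-143-3p, which keeps the canonical seed. It had 28.4, 27.7, 22.7, 12.3 and 18.6 normalized reads in PD16. In PD20 its lowest value was 29.3, its median 73.6 and its highest 112, the last in replicate 1. The PD20 and PD16 libraries did not overlap, which held for 1.15% of all sequences in that direction. It rose by a log2FC of 1.68 (SE 0.358, edgeR adjusted p = 0.0314). Without PD20 replicate 1 the log2FC was 1.53 (SE 0.345, adjusted p = 0.0505) and the groups still did not overlap (1.95% of all sequences in that direction, 1.37% in the other). Leaving out 1 library at a time, the adjusted p ran from 0.00346 to 0.115 and the call was lost in 7 of 11 cases, namely PD16 replicates 2 to 5 and PD20 replicates 1, 3 and 5. With the level at position 20 as a term the log2FC was 1.66 (edgeR adjusted p = 0.0362), and within the low, middle and high levels the mean log2 level was higher in PD20 by 1.63, 1.38 and 1.67.

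Every one of the 31 members had a positive log2FC between PD16 and PD20, with a median of 1.20, against -0.06 over all 873 sequences, of which 45.5% were positive. The unadjusted p was under 0.05 for 19 of the 31, which are not independent of each other, against 14.2% of all sequences. Without PD20 replicate 1 these became 25 positive members, a median of 0.42 and 2 members with an unadjusted p under 0.05 (13.9% of all sequences). Canonical miR-143-3p had 38594, 53272, 35441, 34629 and 36750 normalized reads in PD16, and in PD20 a lowest of 31623, a median of 54960 and a highest of 343752. Its groups overlapped, with a log2FC of 1.30 (SE 0.537, adjusted p = 0.264) that became 0.25 (SE 0.273, adjusted p = 0.743) without PD20 replicate 1. The leading miR-145-5p form had a log2FC of 1.19 (SE 0.591, adjusted p = 0.360) with that library and 0.27 (SE 0.440, adjusted p = 0.835) without it.

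**Figure D4:**
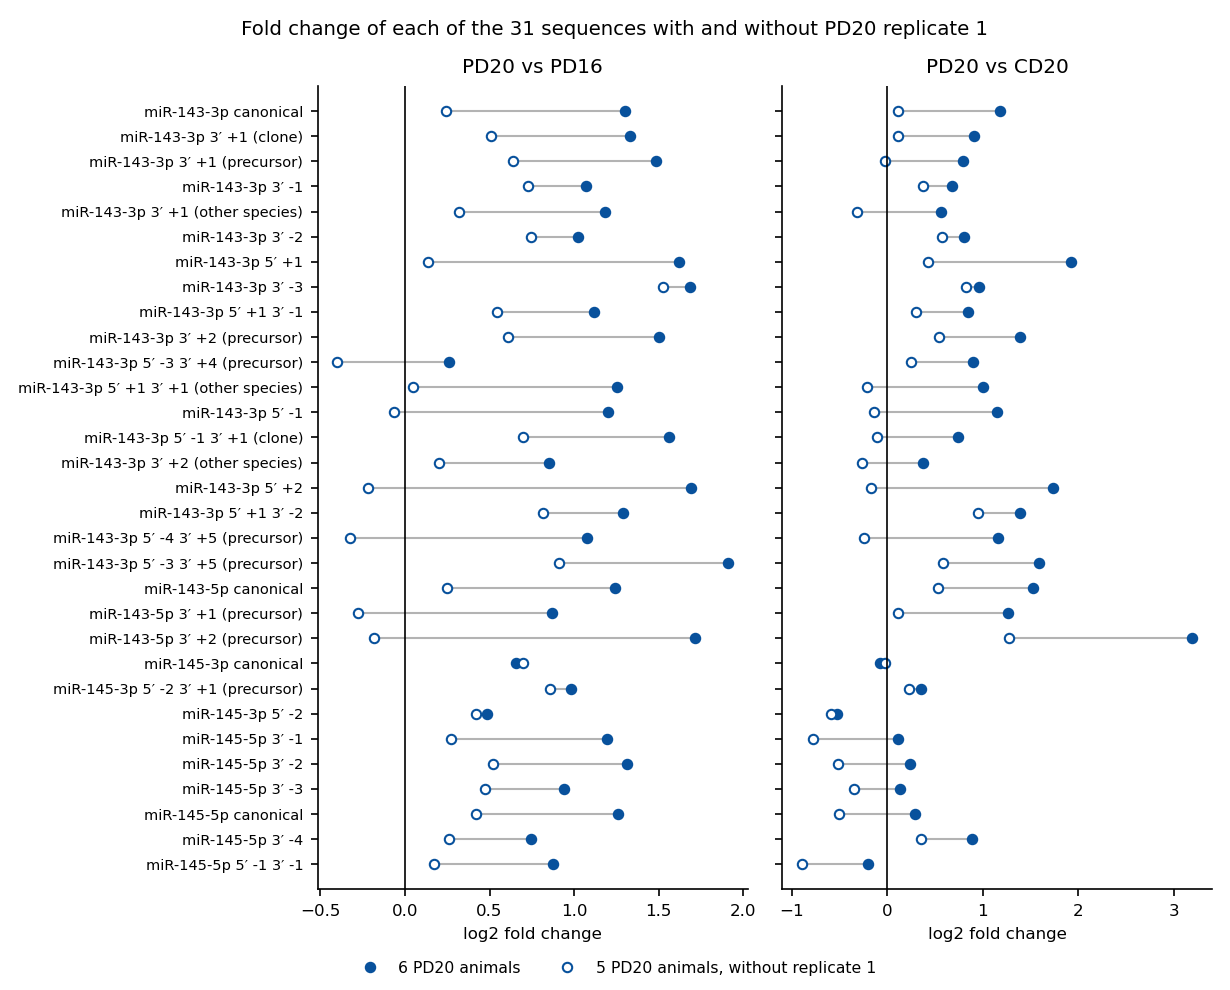
log2FC of each of the 31 sequences in PD20 relative to PD16 (left) and to CD20 (right), with all 6 PD20 animals (filled) and with the 5 left without replicate 1 (open). On the left all 31 filled points are above 0 and 25 of the open ones are. Forms with added 3′ bases are labelled by the kind of name the annotated list gives them (a pig clone, another species or a pig precursor), not by a match of their bases to a hairpin.

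No member was called between days 12 and 16 of pregnancy (background 0.229%) or between PD12 and PD20 (background 0.802%). DESeq2 called 0 of 31 in both, against 2.86% and 5.27% of all sequences. Under a replicate block, however, the 3′ -3 form of miR-143-3p was called in PD20 relative to PD12, as given below under the processing. In the test over the 3 days of pregnancy, 11 members had an unadjusted p under 0.05, against 18.7% of all sequences, and without PD20 replicate 1 there were 2 (17.9%). The smallest p was again that of the 3′ -3 form, at 38.5, 45.4, 38.8, 36.6 and 28.9 normalized reads in PD12, all above PD16. That group separation held for 1.26% of all sequences. Its log2FC was -0.71 for PD16 and 0.97 for PD20 relative to PD12, with a joint adjusted p of 0.0448, and both lay within the fold threshold. The members' median log2FC was -0.52 in PD16 relative to PD12, with 7 of 31 positive (53.3% of all sequences). In PD20 relative to PD12 it was 0.75 with 29 positive (49.3% of all sequences), and -0.01 with 14 positive (48.6%) when PD20 replicate 1 was left out. The muscle list had medians of -0.55 in PD16 and 1.64 in PD20 relative to PD12, the latter 0.09 without PD20 replicate 1. In the joint test 5 of its 8 sequences had an unadjusted p under 0.05, 2 without that library, and 0 were called. Its part in the members' values was not tested. No member was separated without overlap between PD20 and PD12, where 2.18% of all sequences were higher in every PD20 library and 1.15% lower.

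In the cycle, no member was called on CD16 relative to CD12 (background 0.115%), CD20 relative to CD12 (0.458%) or CD20 relative to CD16 (0.458%). In the test over the 3 days, 5 members had an unadjusted p under 0.05 (23.9% of all sequences), and 3 did between CD16 and CD20 (21.2%). The median log2FC of the members was -0.08 on CD16 relative to CD12, with 15 of 31 positive (50.7% of all sequences), -0.39 on CD20 relative to CD12, with 8 positive (54.2%), and -0.25 on CD20 relative to CD16, with 7 positive (48.8%). The only member separated from CD12 without overlap was the 5′ -3 3′ +5 GGGAA form of miR-143-3p, lower on CD16 (2.86% of all sequences in that direction) and on CD20 (1.6%), a form that met the read filter of the list in CD12 alone, and the only one between CD16 and CD20 was the 3′ +2 GG form, lower on CD20 (1.49%). The miR-143-5p 3′ +2 TC form had among the smallest p values in all 3. Its CD12 libraries had 2.74, 0.256, 4.30 and 5.36 normalized reads, CD16 had 12.4, 5.92, 4.72, 6.95 and 25.9, and CD20 had 0.379, 0.705, 2.79, 5.01 and 3.33. CD16 overlapped both other days through its replicate 3. Among the cyclic groups this form met the read filter of the list in CD16 alone, the day on which it was high. Its log2FC was -2.36 (SE 0.709, edgeR adjusted p = 0.0957) on CD20 relative to CD16 and 1.96 (SE 0.745, joint adjusted p = 0.121) on CD16 relative to CD12. DESeq2 called this form, as 1 of 31 members, in both comparisons (adjusted p = 0.0213 and 0.0282), where it called 8.59% and 5.84% of all sequences. Its highest library, CD16 replicate 5, also had the highest muscle list sum outside PD20 replicate 1, and the part of that in the result was not tested.

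Pregnant and cyclic animals were compared on each day. On day 12, no member and none of all sequences (0.0%) was called, and 3 members had an unadjusted p under 0.05 (6.08% of all sequences), with a median log2FC of -0.18 and 12 of 31 positive (52.5% of all sequences). DESeq2 called none either (0.0%). The 3′ +1 A form of miR-143-3p was lower in PD12, at 1017, 1095, 737, 1139 and 859 normalized reads, than in CD12, at 2090, 1173, 1295 and 1146, with no overlap. It was 1 of 2 members with such separation, the other being the 5′ -1 3′ +1 T form, and 0.687% of all sequences were separated in that direction.

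On day 16, 12 of the 31 members had an unadjusted p under 0.05, all of them lower in pregnancy, against 10.9% of all sequences. None was called, nor was any other sequence (0.0%). The members' median log2FC was -0.78, with 4 of 31 positive (51.3% of all sequences). The smallest p belonged to the 3′ -2 form of miR-143-3p, at 396, 209, 318, 332 and 208 normalized reads in PD16 and 437, 593, 571, 765 and 852 in CD16. Its log2FC was -1.17 (SE 0.323, edgeR adjusted p = 0.240), and DESeq2 called it alone of the 31 (adjusted p = 0.0314), with 0.803% of all sequences called. miR-145-3p canonical had 11.8, 8.25, 13.9, 6.70 and 10.5 in PD16 and 18.6, 17, 16.5, 24.1 and 76.6 in CD16, with a log2FC of -1.60 (SE 0.468, adjusted p = 0.265). With the 3′ +2 GG and the 5′ +1 3′ -2 forms of miR-143-3p, they made up 4 members whose PD16 libraries lay below all CD16 libraries, which held for 1.03% of all sequences. The last of these did not meet the read filter of the list in PD16. The muscle list had a median log2FC of -1.21 in the same comparison, with 4 of 8 sequences at an unadjusted p under 0.05 and 0 called, and its part in the members' values was not tested.

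On day 20, no member was called, against 1.49% of all sequences, DESeq2 called 0, against 15%, and 7 had an unadjusted p under 0.05 (28.5% of all sequences). The likelihood ratio test and the fit of all libraries together did call members, as given below under the processing. Of the members, 28 had a positive log2FC (48.6% of all sequences) with a median of 0.89, which became 16 and 0.11 without PD20 replicate 1 (48.3%), with 1 member at an unadjusted p under 0.05 (24.6%). The lowest p was that of the miR-143-5p 3′ +2 TC form, which had a lowest of 4.09, a median of 6.09 and a highest of 93.2 normalized reads in PD20, the last in replicate 1. This form met the read filter of the list in PD20 but not in CD20, where it was low. Its log2FC was 3.20 (SE 0.972, adjusted p = 0.0630), and 1.28 (SE 0.577, adjusted p = 0.178) without that library. The miR-143-3p 5′ +1 form, with its own seed, had a lowest of 90.3, a median of 238 and a highest of 2363 in PD20, and a log2FC of 1.92 (SE 0.729, adjusted p = 0.105) that became 0.43 (SE 0.397, adjusted p = 0.520) without replicate 1. For the leading miR-145-5p form the log2FC was 0.11 (SE 0.628) with that library and -0.78 (SE 0.491, adjusted p = 0.325) without it.

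Whether the difference between pregnancy and cycle changed with the day was tested in 1 fit of all 30 libraries. Between days 16 and 12 no member was called (background 0.0%), and between days 20 and 12 none (0.115%), with 2 and 10 members at an unadjusted p under 0.05 (8.13% and 16.4% of all sequences) and 0 called by DESeq2 (0.0% and 2.52% of all sequences). The members with a positive difference were 8 and 26 (50.2% and 45.5% of all sequences), and the 26 became 22 (46.6%) without PD20 replicate 1. Between days 20 and 16, 3 members were called, all in the direction of a higher pregnancy-to-cycle difference on day 20, against 2.41% of all sequences.

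The miR-143-3p 3′ +2 GG form, 1 of the 3, had 16.3, 4.72, 13.4, 15.3 and 19 normalized reads in PD16 and 27.2, 25.9, 46.7, 22.3 and 65.8 in CD16. On day 20 it had a lowest of 9.46, a median of 25 and a highest of 125 in PD20, and 18.6, 15.5, 20.5, 7.24 and 15.2 in CD20. Thus PD16 lay below CD16 without overlap, while PD20 and CD20 overlapped. The difference of the log2FC values was 2.77 (SE 0.737, edgeR adjusted p = 0.0440).

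The second was the miR-143-3p 5′ +1 3′ -2 form, at 4.17, 4.13, 4.13, 4.10 and 2.38 in PD16, 8.88, 9.61, 6.13, 6.95 and 17.5 in CD16, and 3.41, 2.47, 9.31, 2.23 and 0.952 in CD20. Its PD20 libraries had a lowest of 3.55, a median of 8.45 and a highest of 22. Here too PD16 was below CD16 without overlap, and the difference was 2.71 (SE 0.742, adjusted p = 0.0440). This form met the read filter of the list in PD12, PD20, CD12 and CD16 but not in PD16 or CD20, the groups in which it was low.

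The third was the miR-143-5p 3′ +2 TC form, with a difference of 3.91 (SE 1.08, adjusted p = 0.0452). It had 5.69, 6.49, 3.61, 9.68 and 6.19 in PD16, where it overlapped CD16. It met the read filter of the list in the pregnant groups and CD16 but not in CD12 or CD20. All 3 are rare sequences within their arms.

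Without PD20 replicate 1 the differences were 2.02 (adjusted p = 0.0803), 2.32 (adjusted p = 0.0803) and 2.19 (adjusted p = 0.159), and no member was called, against 0.229% of all sequences. The members' median difference was 1.49 with 30 of 31 positive (46.2% of all sequences), and 0.66 with 26 positive (49.6%) without that library. With the level at position 20 as a term the differences were 2.72 (adjusted p = 0.0661), 2.83 (adjusted p = 0.0544) and 3.39 (adjusted p = 0.0957), and 0 members were called. A replicate block also left 0 called. The shares of all sequences called in these fits are not given here, so the losses are not set against a background. Within the low, middle and high levels, differences of mean log2 levels were 2.74, 1.70 and 2.59 for the GG form, 1.51, 2.55 and 4.37 for the 5′ +1 3′ -2 form, and 0.38, 5.36 and 2.37 for the TC form, with PD20 replicate 1 in the middle level. With PD20 replicate 1 and CD16 replicate 5 left out, 24 were positive with a median of 0.48 and none was called. The shares of all sequences in that fit are not given here, so these counts are not set against a background. Leaving out 1 of 21 libraries at a time ended the call of the GG form in 15 cases, of the 5′ +1 3′ -2 form in 15 and of the TC form in 12. All 3 calls were lost without any 1 of the PD16 libraries, PD20 replicates 1 and 5, CD16 replicates 1, 2 and 5, and CD20 replicates 1 and 2. The GG form was lost also without PD20 replicate 3, CD16 replicate 3 or CD20 replicate 4, and the 5′ +1 3′ -2 form without PD20 replicate 3 or CD20 replicates 4 or 5.

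**Figure D5:**
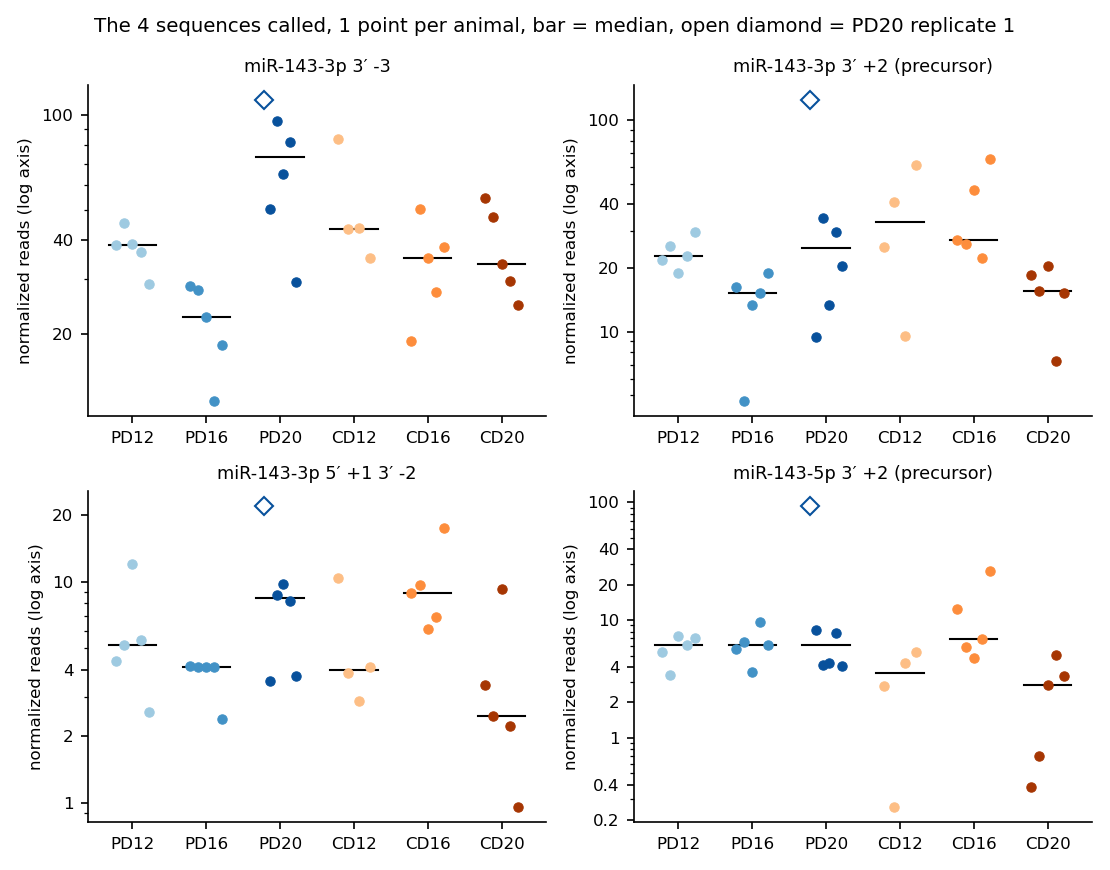
Normalized reads (log axis) in every library by group for the 4 members called in any comparison, with the group median as a line, PD20 replicate 1 as an open diamond, and the GG and TC forms labelled precursor after the kind of name the annotated list gives them. The 3′ -3 form of miR-143-3p is higher in all PD20 than in all PD16 libraries (29.3 or more against 28.4 or less), and PD20 replicate 1 has the highest value of each of the 4.

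The lists of other miRNAs were read beside these results. In the comparison of days 20 and 16, 2 of the 8 muscle list sequences were called in the same direction (2.41% of all sequences were called), with a median difference of 2.86 over the list, and without PD20 replicate 1 none was called (0.229%) and the median was 1.62. The list had 0 sequences called in the other 11 comparisons. Its median log2FC was 2.21 in PD20 relative to PD16 and 1.77 relative to CD20, and 0.70 and 0.28 without PD20 replicate 1. Of the 39 stromal sequences, miRNAs known from fibroblasts and other mesenchymal cells, 0 were called in all 12 comparisons. In PD20 relative to CD20, 13 of them had an unadjusted p under 0.05, near the 28.5% of all sequences. The median log2FC over the list was -0.61 there, both with and without PD20 replicate 1. Of the 17 endothelial sequences 0 were called as well with all libraries in, with 4 at an unadjusted p under 0.05 in PD20 relative to CD20, where 28.5% of all sequences were, and a median log2FC of -0.38. Without PD20 replicate 1, 1 endothelial sequence fell in that comparison (1.03% of all sequences were called), 4 had an unadjusted p under 0.05 and the median was -0.30.

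Of the 65 epithelial sequences, 3 fell in PD20 relative to CD20 (1.49% of all sequences were called), and without PD20 replicate 1 there were 3 that fell and 1 that rose (1.03%). The median log2FC over that list was above 0, at 0.50 with all libraries and 0.47 without PD20 replicate 1, against -0.03 and -0.04 over all sequences. A further count of 1 had a lower pregnancy-to-cycle difference on day 20 than on day 12, with and without that library (0.115% of all sequences in both). Of the 15 leukocyte sequences, 1 rose on CD20 relative to CD12 (0.458% of all sequences were called), 1 rose relative to CD16 (0.458%) and 1 fell in PD20 relative to CD20 (1.49%), the last not without PD20 replicate 1 (1.03%). Of the 16 erythrocyte sequences, 1 had a higher difference on day 20 than on day 16 (2.41%), and 0 did without that library (0.229%).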

How the data were processed

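The authors sequenced small RNA (NEXTflex kit, 3 pools, 2 runs joined, Genome Analyzer IIx), kept reads with every base above the quality minimum, removed adapters, discarded reads under 17 nt or with unknown bases, and collapsed identical reads. For each library they deposited the raw read count of every distinct sequence, not normalized and not aligned. Their annotated list of 873 sequences, made by identity to pig and mammalian miRNAs and limited to sequences with at least 10 reads in at least 4 libraries (3 in CD12) of at least 1 group, was joined to the counts by exact match. The deposited sequences outside that list were used only where stated.

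Depth was between 1574834 and 5241838 annotated reads per library. Intervals cover counting error only, since PCR copies are not independent molecules. Tests used edgeR 4.0.16 (quasi-likelihood F-test, TMM, prior count of 0.125, R 4.3.3) on the 873 counts, with Benjamini-Hochberg adjustment over all sequences tested. Days were fitted within each status, with a joint test of days 16 and 20 against day 12 and a single test of day 20 against day 16. Status was fitted within each day, and the change of the status difference with day in 1 fit of all 30 libraries. The animals are biological replicates, and the labels tie no animals together by number, although the replicate number runs with 3 levels of C in place of T at position 20. Over the 70 pairs with the same number, deviations from the group means had a median correlation of -0.042, against 0.002 over 304 other pairs. No 2 libraries of a group agreed within sampling noise. The tests were tried on simulated data, but the outcome is not given here and no error rate is drawn from it. Ratios were compared by exact permutation with 0.5 added to each count (scipy 1.17.1).

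The members, the miRNA lists and the tests were chosen with earlier results of these data known. Sequences named are the canonical and most abundant ones of each arm, those in a ratio, the most abundant with each 5′ change, every called member and the 2 with the smallest p in each comparison; others are named where 5 or fewer shared a property. Alternatives were the likelihood ratio test, DESeq2 1.42.0, RLE scaling, all deposited reads as library size, a minimum mean of 10 CPM, a replicate block, 1 fit of all libraries, single contrasts, all deposited sequences with at least 10 reads, and leaving out each library. Leaving out CD16 replicate 3 with PD20 replicate 3, or PD20 replicate 1 with CD16 replicate 5, leaving PD20 replicate 1 out of the test of PD16 and PD12, counting an added C with an added T, and the level at position 20 as a term in the fits or as strata for the permutations were added after seeing the data. No genome coordinates are printed, and RefSeq (Sscrofa11.1) served only to show which genes neighbour each other.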

Additional observations from a re-analysis of the deposited data

Results flagged for a closer look

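In 216 pairs of a group and a measure, 41 had a lowest or highest library whose gap to the next was above the critical value of Dixon's test. Chance alone gives about 1 in 20 for independent pairs of normally distributed values. Here sums, their members and ratios share libraries, so the 41 cannot be set against that rate.

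Of these, 20 were PD20 replicate 1 as the highest of its group. In normalized reads it had 629608 of summed miR-143-3p, 343752 of the canonical form, 240104 of 3′ +1 T, 26179 of 3′ +1 G, 4662 of 3′ +1 A, 2363 of 5′ +1, 125 of 3′ +2 GG, 63.8 of 5′ -1, 59.0 of 5′ +2, 58.3 of 5′ -3 3′ +4 GGGA, 22 of 5′ +1 3′ -2 and 22 of 5′ -4 3′ +5 GGGAA. It had 1032 of summed miR-143-5p, 686 of its canonical form and 93.2 of 3′ +2 TC. For miR-145-5p it had 5308 in sum, 2940 of 3′ -1, 1585 of 3′ -2, 191 of the canonical form and 35.6 of 5′ -1 3′ -1. The same library had the highest muscle list sum (40186 normalized reads), whose part in these values was not tested.

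In PD16, replicate 1 was the highest in summed miR-145-5p (1440), in its 3′ -1 (840), 3′ -2 (402) and canonical (55.7) forms, in the ratio of miR-145-5p to miR-143-3p (0.0218), and in miR-143-3p 3′ +1 G (3986), 3′ -1 (4262) and 3′ +2 AG (14). Replicate 2 was the highest in canonical miR-143-3p (53272), and replicate 5 the lowest in 5′ +1 3′ -2 (2.38). In CD12, replicate 1 was the highest in miR-143-3p 3′ +1 A (2090), 5′ +1 3′ -2 (10.4) and 5′ -4 3′ +5 GGGAA (6.57), and replicate 2 had the lowest ratio of T added to canonical (0.424). In CD16, replicate 5 was the highest in miR-145-3p, with 136 in sum, 76.6 of the canonical form and 40.7 of 5′ -2 3′ +1 T, and replicate 3 was the highest in canonical miR-145-5p (134). The ratio of the 3′ -1 form to canonical miR-143-3p was highest in PD20 replicate 4 (0.231) and in CD16 replicate 4 (0.193). In PD12, replicate 4 had the highest ratio of A added (0.0369).

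The difference between pregnancy and cycle was called as changed between days 16 and 20, by the test of the interaction, for 3 members, miR-143-3p 3′ +2 GG (2.77 on the log2 scale), miR-143-3p 5′ +1 3′ -2 (2.71) and miR-143-5p 3′ +2 TC (3.91). The second met the read filter of the annotated list in neither PD16 nor CD20, and the third in neither CD12 nor CD20, so their place on the list rests partly on groups in which they were high. None of the 3 passed without PD20 replicate 1 or with the level of C in place of T at position 20 as a term.

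Sequences outside the annotated list carried reads in every arm. The most abundant had 901298 reads for miR-143-3p, 3647 for miR-143-5p, 483 for miR-145-3p and 10120 for miR-145-5p.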

How the results depend on the processing

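Of the 12 counts of members called, 5 stayed at 0 in every alternative run. The 0 ratio tests passed, also with permutation within the levels at position 20, say nothing of stability, since single tests of this size could not pass. In PD20 relative to PD16 the single call was lost (0 members called) with library sizes taken from all deposited reads, with all deposited sequences tested, without PD20 replicate 1, and with CD16 replicate 3 and PD20 replicate 3 left out together. Between days 20 and 16 the 3 calls of the status difference became 6 with DESeq2 (5.96% of all sequences called), 1 with a minimum mean of 10 CPM (2.91%), and 0 with library sizes from all deposited reads, with all deposited sequences, with either pair of libraries added after seeing the data, and with the level at position 20 as a term, which changed no other count. DESeq2 called 1 member in CD16 relative to CD12 (5.84% of all sequences), 1 in CD20 relative to CD16 (8.59%) and 1 in PD16 relative to CD16 (0.803%), where edgeR's quasi-likelihood test called 0. The likelihood ratio test called 1 (5.27%) and 1 (6.41%) in the first 2 of these and, in PD20 relative to CD20, 2 (14.2%), and 1 fit of all 30 libraries called 3 (11.2%) in the last. Leaving out 1 library at a time, between 0 and 1 members were called in PD20 relative to PD12, PD20 relative to PD16 and CD20 relative to CD16, between 0 and 2 in PD16 relative to CD16, between 0 and 3 in PD20 relative to CD20, and between 0 and 4 for days 20 and 16, where the highest shares of all sequences called were 2.41%, 1.03%, 4.12%, 4.13%, 13.3% and 3.89%. Under a replicate block, the count became 1 in PD20 relative to PD12 (the 3′ -3 form, log2FC 1.11, adjusted p = 0.0403, with 0.344% of all sequences called) and 0 for days 20 and 16, and the block changed no other count. Of the 70 pairs sharing a number, 18 correlated above 0.1, as did 98 of the 304 other pairs. The numbers were therefore not taken as pairs, although they run with the levels at position 20.

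Without PD20 replicate 1 the sign of the log2FC turned in 15 of the 31 members in PD20 relative to PD12, 12 in PD20 relative to CD20, 6 in PD20 relative to PD16, 4 for days 20 and 12 and 4 for days 20 and 16. Other turns were sought in the called members, the 2 with the smallest p in each comparison and the leading forms in 3 comparisons, under every alternative. The miR-145-5p 3′ -1 form in PD20 relative to CD20 (0.11) was at -0.44 with library sizes from all deposited reads and -0.072 with all deposited sequences. Leaving out 1 library at a time it ran from -0.78 (without PD20 replicate 1) to 0.38, and was also below 0 without CD20 replicate 4 (-0.12) or 5 (-0.081). The miR-143-5p 3′ +2 TC form ran from -0.089 (without PD16 replicate 4) to 0.28 in PD16 relative to PD12 (0.17 with all), with -0.019 without PD12 replicate 2, and from -0.0072 (without PD20 replicate 1) to 2.10 in PD20 relative to PD12 (1.88 with all). In CD20 relative to CD12 it was -0.40, and 0.31 with the level at position 20 as a term. Library sizes from all deposited reads moved the median of all sequences, from 0.09 to 0.47 in CD20 relative to CD12 and from -0.03 to -0.27 in PD20 relative to CD20, for instance. The cause of these changes was not tested. The rare forms rest on few reads, which limits what these depths can show.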
